A study of Mus musculus with 3 samples.

Results

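Axon guidance genes encode extracellular cues and the receptors that read them, and 67 such genes, measured by 148 probe sets, were taken from the 18193 named genes and 45037 probe sets of the series. The members were chosen by symbol alone: the semaphorins (Sema), plexins (Plxn) and neuropilins (Nrp), the slits (Slit) and their Robo receptors, the netrins (Ntn) and their Unc5 receptors, and the ephrins (Efn) and their Eph receptors. The semaphorin class held 31 genes, of which 20 were ligands and 11 receptors. The slit class held 3 ligands and 4 receptors, the netrin class 4 ligands and 4 receptors, and the ephrin class 8 ligands and 13 receptors. RNA came from cells of C57BL/6 mouse femur and tibia fragments released with collagenase, and only cells without surface CD45, CD31 and Ter119, the marks of blood, endothelial and erythroid cells, were kept. Those cells were sorted by the receptor PDGFRα and the surface protein Sca-1 into PDGFRα+Sca-1+ (double-positive), PDGFRα+Sca-1− (PDGFRα-only) and PDGFRα−Sca-1− (double-negative) fractions, which the labels describe as endosteal, that is, from the inner bone surface. The sources used here state neither the age of the mice nor how many were pooled.

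Guidance cues were first studied in growing nerve fibres, where they attract or repel the tip of the axon, and the same genes are used by vessels, bone and other tissues to position cells. Semaphorins signal through plexins; most secreted class 3 semaphorins first bind a neuropilin, which is also a co-receptor for vascular endothelial growth factors. Slits bind Robo receptors, netrins bind Dcc, neogenin and Unc5 receptors, and ephrins sit in the membrane and bind Eph receptor kinases on a touching cell, so that both cells can respond. In bone, Sema3a is known to protect bone mass, osteoclast-derived Sema4d to restrain osteoblasts through plexin-B1, and ephrin-B2 and EphB4 to pass signals between osteoclasts and osteoblasts.

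Each fraction was hybridised to 1 array, so no difference below has a replicate check and no p-value was computed. Values are signals in the deposited linear intensity scale, brought to a common level, and a gene is given by its brightest probe set. A signal under 93.2, the mean of the 3 array medians, was treated as not measurable and is called under the floor. A gene counts as higher or lower where the signals differ at least 2-fold, while genes under the floor on both arrays were left uncompared. A gene was measured more than once only where several probe sets target it. Over members with several probe sets above the floor, these log2 ratios scattered around their gene mean with an SD of 0.51 for double-positive over PDGFRα-only (11 genes), 0.43 for PDGFRα-only over double-negative (17 genes) and 0.68 for double-positive over double-negative (12 genes). The 3 comparisons share arrays and are not independent. A lower signal from a sorted population can come from fewer cells of a type or from less RNA per cell, which cannot be told apart here.

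The signal of Pdgfra was 12846 in double-positive cells, 2420 in PDGFRα-only cells and 586 in double-negative cells. It was higher in both fractions sorted as positive, but was also above the floor in the fraction sorted as negative. The PDGFRα gate sets no order between double-positive and PDGFRα-only cells. These differed 5.31-fold, beside 4.13-fold between PDGFRα-only and double-negative cells. Ptprc (CD45) and Pecam1 (CD31) were under the floor in all 3 fractions. Of 9 endothelial markers, 1 was above the floor in double-positive cells (Tek, 888), 2 in PDGFRα-only cells and 1 in double-negative cells. Of 9 blood markers 4 were above the floor in each fraction, with sums between 906 and 1125. Of 6 erythroid markers, 1, 5 and 4 were above the floor in that order of fractions, with sums of 1311, 2252 and 7336, mainly Tfrc, which dividing cells also use. Of 9 neuronal markers, 3, 2 and 2 were above the floor in the same order, and their summed signal was between 483 and 729. Of 7 Schwann cell markers, 5, 5 and 4 were above the floor, with sums of 1838, 7394 and 9490 in that order that consisted mainly of S100b, a gene also used by chondrocytes. Of 8 osteoclast markers 3, 2 and 2 were above the floor, and most of their summed signal (11531, 4582 and 5429) was Ctsk. The summed signal of 6 chondrocyte markers was 13555 in double-positive cells, 137561 in PDGFRα-only cells and 103364 in double-negative cells. That of 6 osteoblast markers was 17999, 98980 and 31246 in the same order, with most of the double-positive sum from Col1a1 (14417). For 6 fibroblast markers it was 94279, 36840 and 28308. Dcn, at 34207, 33977 and 27612, made up most of it in PDGFRα-only and double-negative cells. Of the 6 fibroblast markers, 5 (83.3%) were higher in double-positive than in PDGFRα-only cells and 0 lower, beside 14.9% and 11.3% of all genes. Of 10 pericyte and smooth muscle markers, 8, 7 and 6 were above the floor in that order, with sums of 8414, 14082 and 16782. Most of the sum in PDGFRα-only and double-negative cells was Cspg4 (10083 and 10403, against 2059 in double-positive cells). Of the 8 compared between double-positive and PDGFRα-only cells, 3 (37.5%) were higher and 1 (12.5%) lower, beside 14.9% and 11.3% of all genes. Rgs5, Abcc9 and Notch3 were the higher ones and Cspg4 the lower one. The 3′ to 5′ ratio of the control probe sets, which is higher where the labelled RNA is shorter, was 4.65 for Actb and 4.73 for Gapdh in double-positive cells, against 2.63 and 3.54 in PDGFRα-only cells and 2.99 and 3.93 in double-negative cells. The part of cell mixture and of RNA length in the differences below was not tested.

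Of the 67 genes, 50 were above the floor in at least 1 fraction and 42 in all 3. Among the 48 genes compared between double-positive and PDGFRα-only cells, 9 (18.8%) were higher and 14 (29.2%) were lower, where 14.9% and 11.3% of the 11855 genes compared passed the same fold. Between PDGFRα-only and double-negative cells, 10 of 49 (20.4%) were higher and 3 (6.12%) lower, beside 4.82% and 5.63% of 11675 genes. Between double-positive and double-negative cells, 13 of 49 (26.5%) were higher and 12 (24.5%) lower, beside 14.5% and 12.2% of 11843 genes. The higher share for double-positive over PDGFRα-only and the lower share for PDGFRα-only over double-negative were thus close to those of all genes, and the other shares were above them. The median log2 ratio of the members compared was −0.13, 0.16 and 0.12 in these 3 comparisons, and that of all genes compared 0.07, −0.03 and 0.03. Genes counted here and below as within 2-fold include those with only a bound under 2-fold, for which a larger difference was not measurable. By class, between double-positive and PDGFRα-only cells 6 semaphorin genes were higher and 7 lower of 26, and in the slit class 1 was higher and 1 lower of 3. In the netrin class 2 were higher and 2 lower of 5, and in the ephrin class 0 were higher and 4 lower of 14.

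**Figure D1:**
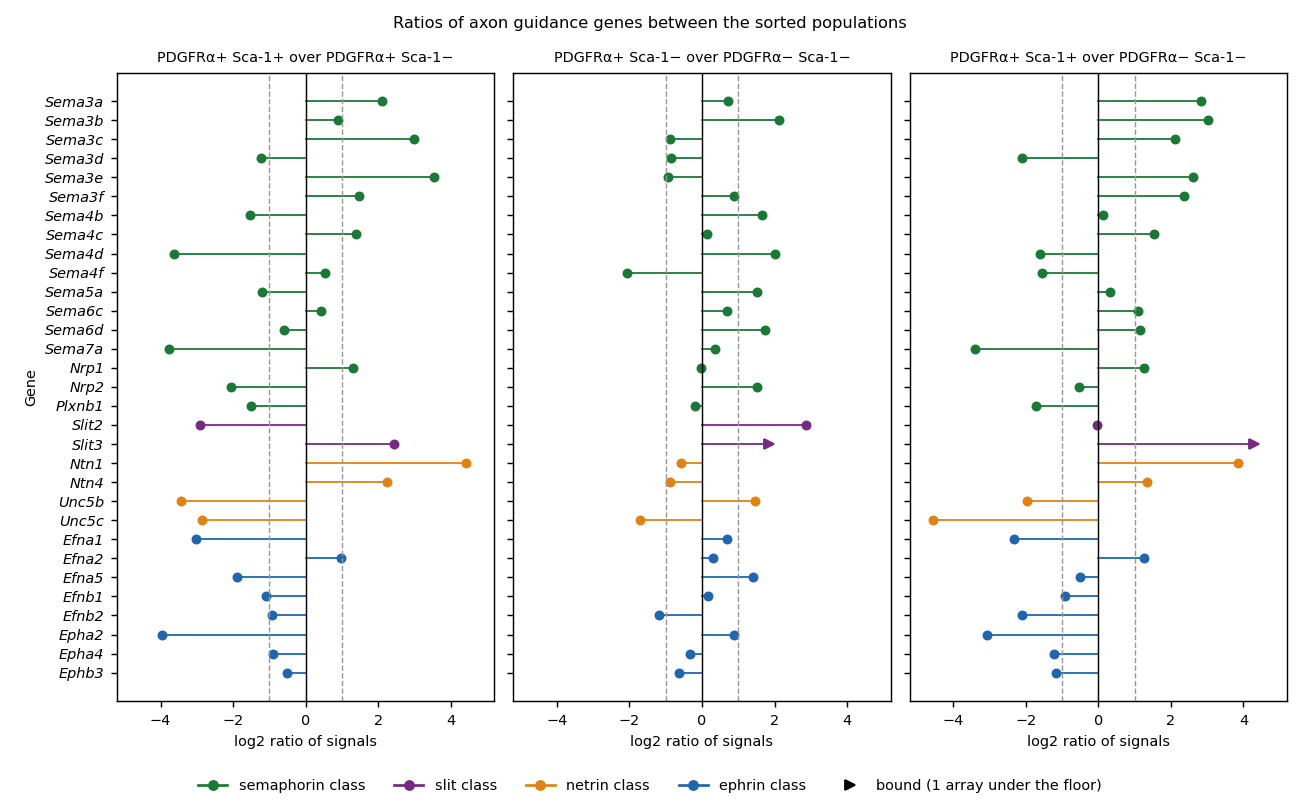
Log2 ratio of signals for each axon guidance gene at least 2-fold apart in at least 1 comparison, grouped by class, in the 3 comparisons of double-positive (PDGFRα+Sca-1+), PDGFRα-only (PDGFRα+Sca-1−) and double-negative (PDGFRα−Sca-1−) cells; dashed lines mark 2-fold and arrowheads are bounds. Ntn1, Sema3e and Sema3c lie furthest to the right for double-positive over PDGFRα-only (4.43, 3.53 and 2.99), and Epha2, Sema7a and Sema4d furthest to the left (−3.95, −3.77 and −3.63).

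**Figure D2:**
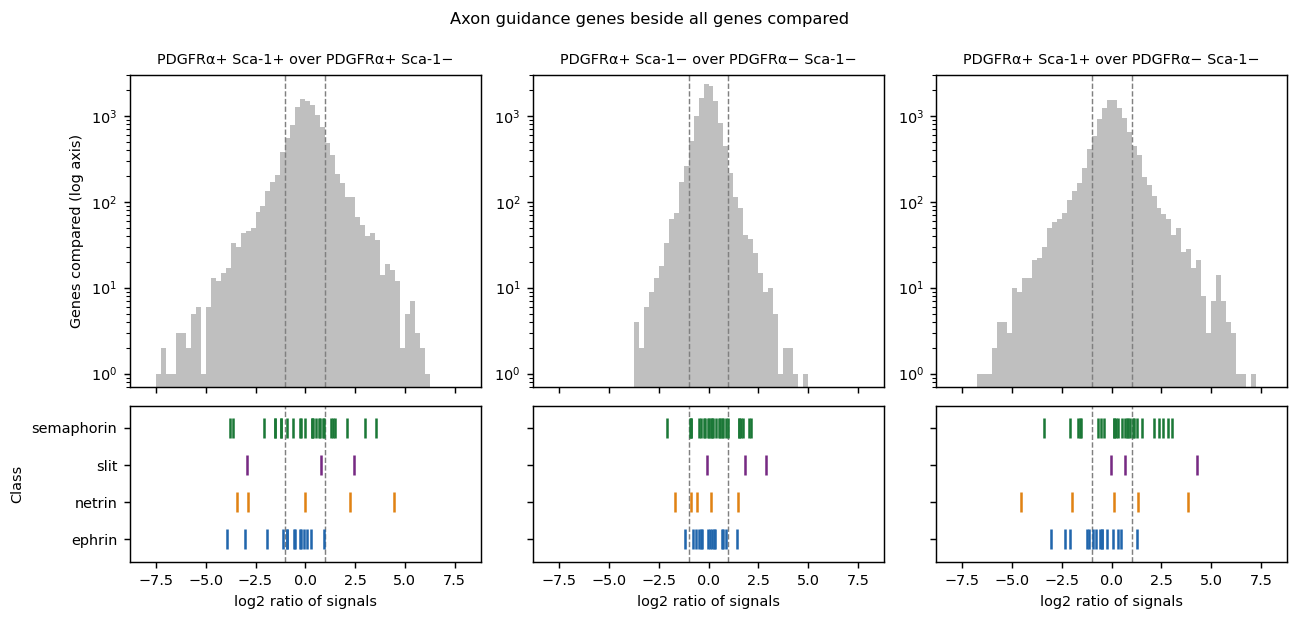
Upper row: number of genes per log2 ratio bin (log axis) among all genes compared, in the 3 comparisons. Lower row: the axon guidance genes compared, 1 tick each, by class, with 2-fold as dashed lines. For double-positive over PDGFRα-only the ephrin ticks lie mostly left of 0 (median −0.54) and none passes 2-fold on the right.

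For each class, the 300 bases around the transcription start are given for the member with the largest ratio of at least 2-fold measured on both arrays in each direction between double-positive and PDGFRα-only cells, among members with an entry, so that the regulatory sequence can be read beside the values. The windows are those of RefSeq on GRCm38.p6 and run from 250 bases before to 50 after the start. Capitals mark matches, on either strand, to a TATA box (TATAAA), a GC box bound by Sp factors (GGGCGG), the core of a RUNX site (TGTGGT) or the palindromic EBF site. No matches of different motifs overlapped. In the semaphorin class these are Sema3e, at chr5:14025026-14025325 (forward strand), higher in double-positive cells, and Sema7a, at chr9:57939862-57940161 (forward strand), lower in them.
Sema3e: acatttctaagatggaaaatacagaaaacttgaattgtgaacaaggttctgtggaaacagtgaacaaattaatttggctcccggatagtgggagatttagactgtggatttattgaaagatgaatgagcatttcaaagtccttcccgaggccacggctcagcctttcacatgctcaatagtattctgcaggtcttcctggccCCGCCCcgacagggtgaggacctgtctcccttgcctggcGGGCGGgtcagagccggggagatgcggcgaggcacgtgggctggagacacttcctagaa
Sema7a: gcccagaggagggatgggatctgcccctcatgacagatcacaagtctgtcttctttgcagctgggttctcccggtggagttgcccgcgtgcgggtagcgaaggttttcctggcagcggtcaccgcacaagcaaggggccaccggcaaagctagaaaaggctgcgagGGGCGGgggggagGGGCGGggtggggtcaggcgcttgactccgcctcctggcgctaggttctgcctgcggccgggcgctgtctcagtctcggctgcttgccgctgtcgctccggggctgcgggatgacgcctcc
Each of the 2 windows held 2 GC boxes and no match to the other motifs. The GC content was 50.7% for Sema3e and 67.3% for Sema7a.

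The secreted class 3 semaphorins, which act as diffusible and mostly repulsive cues, were in the main brighter in double-positive cells. Sema3c, known for its part in heart outflow and vessel growth, had a signal of 10984 in double-positive cells, 1385 in PDGFRα-only cells and 2527 in double-negative cells. The double-positive signal was 7.93-fold higher than in PDGFRα-only cells and 4.35-fold higher than in double-negative cells. Sema3e, the ligand that binds plexin-D1 without a neuropilin, gave 2912 in double-positive cells, 252 in PDGFRα-only cells and 481 in double-negative cells. It was thus 11.6-fold higher in double-positive than in PDGFRα-only cells, and 6.05-fold higher than in double-negative cells. Its second brightest probe set gave a similar 10.3-fold difference between double-positive and PDGFRα-only cells, with signals of 2373 and 230. Sema3a, the founding repellent of the class, gave 687 in double-positive cells, 160 in PDGFRα-only cells and 96.6 in double-negative cells, the last just above the floor. This was 4.29-fold higher in double-positive than in PDGFRα-only cells and 7.11-fold higher than in double-negative cells.

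Sema3f, a ligand of neuropilin-2, gave 1313 in double-positive cells, 471 in PDGFRα-only cells and 256 in double-negative cells, with ratios of 2.79-fold over PDGFRα-only and 5.12-fold over double-negative cells. A second probe set of Sema3f gave 165 in double-positive cells and was under the floor in the other fractions, a bound of 1.77-fold. The third was under the floor throughout. Sema3b, another neuropilin ligand, gave 871 in double-positive cells, 474 in PDGFRα-only cells and 108 in double-negative cells. Both PDGFRα+ fractions were higher than double-negative cells, by 8.07-fold for double-positive and 4.39-fold for PDGFRα-only, while the 2 differed by 1.84-fold. Sema3d, which guides vessels and neural crest cells, went the other way, with 870 in double-positive cells, 2049 in PDGFRα-only cells and 3709 in double-negative cells. It was 2.35-fold lower in double-positive than in PDGFRα-only cells and 4.26-fold lower than in double-negative cells. Sema3g, also a neuropilin-2 ligand, was under the floor in all fractions. Of the 7 class 3 genes, 4 were thus at least 2-fold higher in double-positive than in PDGFRα-only cells and 1 lower, with Sema3g left uncompared. Among all genes compared, 14.9% were higher and 11.3% lower.

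Among the membrane-bound class 4 semaphorins, Sema4c, a plexin-B2 ligand, was the one that was higher in double-positive cells. Its signal was 1262 in double-positive cells, 481 in PDGFRα-only cells and 439 in double-negative cells, 2.62-fold and 2.87-fold higher. Sema4d, the plexin-B1 ligand, gave 250.0 in double-positive cells, 3092 in PDGFRα-only cells and 765 in double-negative cells. It was highest in PDGFRα-only cells, 4.04-fold above double-negative cells, and 12.4-fold lower in double-positive than in PDGFRα-only cells. double-positive cells were also 3.06-fold lower than double-negative cells. Sema4b, whose receptor is less well known, gave 217 in double-positive cells, 629 in PDGFRα-only cells and 199.5 in double-negative cells. It too was highest in PDGFRα-only cells, 2.90-fold lower in double-positive cells and 3.15-fold higher in PDGFRα-only than in double-negative cells. Sema4f, a transmembrane semaphorin first described in the nervous system, gave 198 in double-positive cells, 138 in PDGFRα-only cells and 582 in double-negative cells, and was highest in double-negative cells, by 2.94-fold over double-positive and 4.22-fold over PDGFRα-only cells. Sema4a and Sema4g, the remaining class 4 genes, stayed within 2-fold in all 3 comparisons.

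Sema5a, which carries thrombospondin repeats and binds plexin-A receptors, gave 230 in double-positive cells, 527 in PDGFRα-only cells and 183 in double-negative cells. It was 2.29-fold lower in double-positive than in PDGFRα-only cells and 2.88-fold higher in PDGFRα-only than in double-negative cells. Sema6d, a transmembrane ligand of plexin-A1, gave 732 in double-positive cells, 1114 in PDGFRα-only cells and 333 in double-negative cells, so both PDGFRα+ fractions were above double-negative cells, by 2.20-fold and 3.35-fold. Sema6c, another transmembrane ligand, gave 399 in double-positive cells, 300.3 in PDGFRα-only cells and 188 in double-negative cells, and only its 2.12-fold difference between double-positive and double-negative cells passed 2-fold. Sema7a, the lipid-anchored semaphorin that binds plexin-C1 and integrins, gave 143 in double-positive cells, 1957 in PDGFRα-only cells and 1514 in double-negative cells. It was 13.7-fold lower in double-positive than in PDGFRα-only cells and 10.6-fold lower than in double-negative cells, the largest lower ratio among the ligands of the class in both comparisons. Sema5b and Sema6b were under the floor throughout, and Sema6a stayed within 2-fold.

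The 2 neuropilins differed in direction. Nrp1, the partner of Sema3a and of VEGF-A, gave 5664 in double-positive cells, 2282 in PDGFRα-only cells and 2344 in double-negative cells, 2.48-fold and 2.42-fold higher in double-positive cells. Of its 4 probe sets, 3 were higher in double-positive cells, and the dimmest had 475 in double-positive cells, 706 in PDGFRα-only cells and 1630 in double-negative cells, the opposite order. Nrp2, the partner of Sema3f and VEGF-C, gave 801 in double-positive cells, 3364 in PDGFRα-only cells and 1167 in double-negative cells. It was highest in PDGFRα-only cells, with double-positive 4.20-fold lower than PDGFRα-only cells and PDGFRα-only 2.88-fold higher than double-negative cells. All 4 of its probe sets were lower in double-positive than in PDGFRα-only cells, by between 2.01-fold and 4.20-fold.

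Of the plexins, only Plxnb1, the Sema4d receptor, passed 2-fold. Its signal was 230 in double-positive cells, 657 in PDGFRα-only cells and 755 in double-negative cells, 2.85-fold and 3.28-fold lower in double-positive cells. Plxnb2, a receptor for Sema4c, was bright throughout, with 1998 in double-positive cells, 1577 in PDGFRα-only cells and 1860 in double-negative cells, and stayed within 2-fold. Plxnd1, the Sema3e receptor, gave 358 in double-positive cells, 436 in PDGFRα-only cells and 223 in double-negative cells, also within 2-fold although its ligand differed 11.6-fold. Plxna1, Plxna2 and Plxna3, signalling partners of the neuropilins, stayed within 2-fold as well, as did Plxna4 between double-positive and PDGFRα-only cells; its ratios over double-negative cells are bounds under 2-fold. Plxnb3, and Plxnc1, the Sema7a receptor, with 6 probe sets, were under the floor in all fractions. Over the class, ligands split into 5 higher, 5 lower and 7 within 2-fold between double-positive and PDGFRα-only cells, and receptors into 1, 2 and 6. Of all genes compared there, 14.9% were higher and 11.3% lower. Between PDGFRα-only and double-negative cells 6 of 26 (23.1%) were higher and 1 (3.85%) lower, beside 4.82% and 5.63% of all genes. Between double-positive and double-negative cells 9 of 26 (34.6%) were higher and 5 (19.2%) lower, beside 14.5% and 12.2%. Of these 9 and 5, 8 and 4 were ligands.

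**Figure D3:**
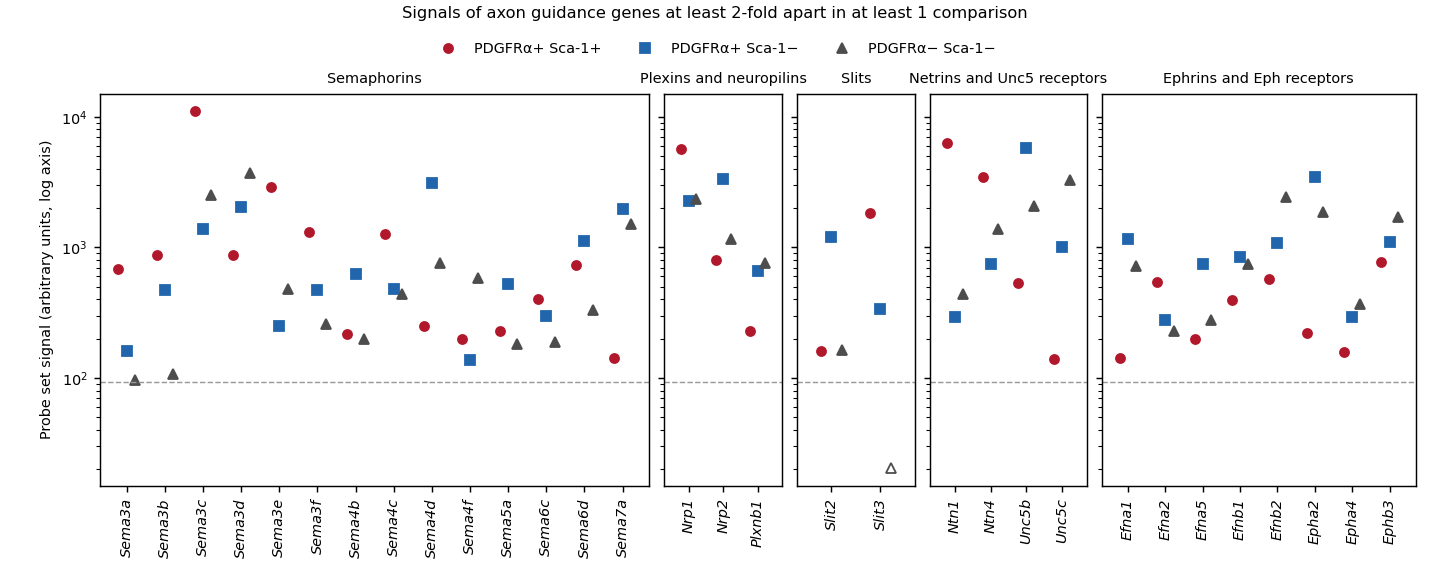
Signals (log axis) of the axon guidance genes at least 2-fold apart in at least 1 comparison, by class, in double-positive, PDGFRα-only and double-negative cells from left to right within each gene (circles, squares and triangles). Each point is 1 array, the floor of 93.2 is dashed, and the open triangle of Slit3 lies under it. Slit2, Unc5b, Nrp2 and Sema4d peak in PDGFRα-only cells (1205, 5741, 3364 and 3092), whereas Ntn1 and Sema3c are highest in double-positive cells (6288 and 10984).

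In the slit class the 2 ligands above the floor differed in opposite directions between double-positive and PDGFRα-only cells. Their start windows are shown for that reason: Slit3 at chr11:35121206-35121505 (forward strand) and Slit2 at chr5:47982905-47983204 (forward strand), with capitals as above.
Slit3: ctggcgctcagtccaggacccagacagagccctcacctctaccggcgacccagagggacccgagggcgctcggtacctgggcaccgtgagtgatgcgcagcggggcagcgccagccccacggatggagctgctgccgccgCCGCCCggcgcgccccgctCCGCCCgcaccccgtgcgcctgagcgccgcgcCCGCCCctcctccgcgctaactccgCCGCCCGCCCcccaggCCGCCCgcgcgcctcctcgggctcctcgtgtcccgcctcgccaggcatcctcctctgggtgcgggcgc
Slit2: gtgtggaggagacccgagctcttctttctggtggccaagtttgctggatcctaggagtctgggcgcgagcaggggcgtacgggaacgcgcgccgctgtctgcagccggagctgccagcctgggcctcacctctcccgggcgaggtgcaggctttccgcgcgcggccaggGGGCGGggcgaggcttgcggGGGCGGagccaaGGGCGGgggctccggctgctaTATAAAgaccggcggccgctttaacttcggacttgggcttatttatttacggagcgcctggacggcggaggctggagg
The Slit3 window held 6 GC boxes and 41 CpG dinucleotides at 78.3% GC. The Slit2 window held 3 GC boxes and 1 TATA box, with 30 CpG dinucleotides. Slit3, a secreted repellent that in mouse bone has been described as an osteoblast-derived and an osteoclast-derived factor, gave 1818 in double-positive cells, 336 in PDGFRα-only cells and 20.5, under the floor, in double-negative cells. It was 5.41-fold higher in double-positive than in PDGFRα-only cells. Against double-negative cells it was at least 19.5-fold higher in double-positive cells and at least 3.61-fold higher in PDGFRα-only cells, taking the floor for the double-negative signal. Slit2, the most studied slit in axon repulsion, gave 160 in double-positive cells, 1205 in PDGFRα-only cells and 164 in double-negative cells. It was 7.51-fold lower in double-positive than in PDGFRα-only cells and 7.36-fold higher in PDGFRα-only than in double-negative cells, while double-positive and double-negative signals were nearly equal. A second probe set of Slit2 had 33.2 in double-positive cells, 129 in PDGFRα-only cells and 35.5 in double-negative cells, above the floor in PDGFRα-only cells alone, and the third was under the floor throughout.

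Of the 4 Robo receptors, Robo1 alone was above the floor, with 609 in double-positive cells, 358 in PDGFRα-only cells and 383 in double-negative cells, within 2-fold in each comparison. Robo2, Robo3 and the endothelial Robo4 were under the floor in every fraction, as was the ligand Slit1. With 3 genes compared, the class gives no share to set beside the background.

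In the netrin class both ligands above the floor were higher in double-positive than in PDGFRα-only cells. Of the 3 Unc5 receptors compared 2 were lower and 1 was within 2-fold. Of all genes compared there, 14.9% were higher and 11.3% lower. The 5 netrin genes compared are too few to give a share to set beside these. Ntn1, the founding netrin, which attracts axons through Dcc and repels them through Unc5, gave 6288 in double-positive cells, 292 in PDGFRα-only cells and 439 in double-negative cells. It was 21.6-fold higher in double-positive than in PDGFRα-only cells and 14.3-fold higher than in double-negative cells, the largest higher ratio of any member in the first of these comparisons. A second probe set of Ntn1 was under the floor in all fractions, with 42.8 in double-positive, 54.5 in PDGFRα-only and 54.4 in double-negative cells. The start windows of Ntn4, at chr10:93640799-93641098 (forward strand), and of Unc5b, at chr10:60831532-60831831 (reverse strand), are shown as a ligand and a receptor of the class with opposite differences.
Ntn4: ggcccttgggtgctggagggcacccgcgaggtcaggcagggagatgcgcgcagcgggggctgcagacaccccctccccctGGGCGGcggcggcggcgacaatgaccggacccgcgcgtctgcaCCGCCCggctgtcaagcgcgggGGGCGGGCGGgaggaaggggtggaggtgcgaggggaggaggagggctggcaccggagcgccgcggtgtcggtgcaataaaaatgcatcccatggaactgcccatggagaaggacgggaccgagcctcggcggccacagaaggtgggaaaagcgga
Unc5b: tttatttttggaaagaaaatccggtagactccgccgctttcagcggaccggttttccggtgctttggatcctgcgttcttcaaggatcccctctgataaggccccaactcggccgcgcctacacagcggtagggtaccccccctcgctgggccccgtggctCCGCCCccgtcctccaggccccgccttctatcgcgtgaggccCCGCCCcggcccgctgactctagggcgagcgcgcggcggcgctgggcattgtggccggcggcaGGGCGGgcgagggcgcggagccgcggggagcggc
They held 4 and 3 GC boxes, with 31 CpG dinucleotides in the Ntn4 window and 36 in the Unc5b window. Ntn4, a basement membrane netrin that binds laminin, gave 3479 in double-positive cells, 739 in PDGFRα-only cells and 1370 in double-negative cells. It was 4.71-fold higher in double-positive than in PDGFRα-only cells and 2.54-fold higher than in double-negative cells. Ntn3 and Ntn5 were under the floor in all fractions.

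Unc5b, the netrin receptor also known from vessel sprouting, gave 530.5 in double-positive cells, 5741 in PDGFRα-only cells and 2088 in double-negative cells. It was 10.8-fold lower in double-positive than in PDGFRα-only cells, 3.94-fold lower in double-positive than in double-negative cells and 2.75-fold higher in PDGFRα-only than in double-negative cells. Its other probe set was at least 9.91-fold lower in double-positive than in PDGFRα-only cells, with 82.0, under the floor, in double-positive cells and 923 in PDGFRα-only cells. Unc5c, a receptor for netrin repulsion, gave 139 in double-positive cells, 1007 in PDGFRα-only cells and 3270 in double-negative cells, and so was highest in double-negative cells. It was 7.24-fold lower in double-positive than in PDGFRα-only cells, 23.5-fold lower in double-positive than in double-negative cells and 3.25-fold lower in PDGFRα-only than in double-negative cells. Unc5a, a netrin receptor of nerve cells, at 102 in double-positive cells, 101 in PDGFRα-only cells and 24.6 in double-negative cells, was close to the floor where it was above it. Its ratios over double-negative cells are bounds under 2-fold, which passed 2-fold with the floor at the 33rd percentile, and Unc5d was under the floor throughout. The other netrin receptors, named after their values were seen, did not pass 2-fold: Neo1 (neogenin) gave 4559 in double-positive cells, 7042 in PDGFRα-only cells and 7529 in double-negative cells, and Dcc was under the floor in each.

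The ephrin class was lower or within 2-fold in double-positive cells relative to PDGFRα-only cells: 3 of 8 ephrins and 1 of 6 Eph receptors compared were lower and none was higher, beside 11.3% and 14.9% of all genes. The window of Epha2, at chr4:141300971-141301270 (forward strand), is shown because it had the largest lower ratio of all members in that comparison.
Epha2: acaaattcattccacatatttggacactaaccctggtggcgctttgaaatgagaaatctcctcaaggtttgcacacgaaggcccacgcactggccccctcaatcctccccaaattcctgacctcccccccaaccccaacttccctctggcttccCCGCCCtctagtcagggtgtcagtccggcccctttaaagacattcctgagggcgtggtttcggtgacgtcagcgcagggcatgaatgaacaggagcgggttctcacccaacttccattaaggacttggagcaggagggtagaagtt
It held 1 GC box and 10 CpG dinucleotides at 54.7% GC. Epha2, a receptor kinase for A-type ephrins found in many epithelia and tumours, gave 222 in double-positive cells, 3449 in PDGFRα-only cells and 1861 in double-negative cells. It was 15.5-fold lower in double-positive than in PDGFRα-only cells and 8.37-fold lower than in double-negative cells, and 1 probe set measured it.

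Efna1, a ligand of EphA2, gave 143 in double-positive cells, 1165 in PDGFRα-only cells and 719.5 in double-negative cells, the same order of fractions as its receptor. It was 8.16-fold lower in double-positive than in PDGFRα-only cells and 5.04-fold lower than in double-negative cells. Efna5, a broad EphA ligand, gave 198 in double-positive cells, 740 in PDGFRα-only cells and 279 in double-negative cells. It was highest in PDGFRα-only cells, by 2.65-fold over double-negative cells, and 3.74-fold lower in double-positive than in PDGFRα-only cells. Efna2, another EphA ligand, gave 542 in double-positive cells, 279 in PDGFRα-only cells and 227 in double-negative cells, the 1 ephrin gene that was at least 2-fold higher in double-positive cells, by 2.39-fold over double-negative cells. Its other probe set gave 119 in double-positive cells and 109 in double-negative cells, only a 1.09-fold difference. Efna3 and Efnb3 stayed within 2-fold, and Efna4 was above the floor in PDGFRα-only cells alone, with bounds under 2-fold.

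Efnb2, the transmembrane ligand of EphB4, gave 568 in double-positive cells, 1075 in PDGFRα-only cells and 2435 in double-negative cells. It was highest in double-negative cells, with PDGFRα-only 2.26-fold and double-positive 4.29-fold lower. Its receptor Ephb4 gave 98.5 in double-positive cells, 57.7 in PDGFRα-only cells and 95.5 in double-negative cells, just above the floor in double-positive and double-negative cells and under it in PDGFRα-only cells. Efnb1, a ligand of EphB receptors that in people and mice is needed for normal skull form, gave 395 in double-positive cells, 847 in PDGFRα-only cells and 752 in double-negative cells, and was 2.15-fold lower in double-positive than in PDGFRα-only cells. Among the other receptors, Ephb3 gave 772 in double-positive cells, 1101 in PDGFRα-only cells and 1720 in double-negative cells. It was 2.23-fold lower in double-positive than in double-negative cells. Epha4, which binds ephrins of both types, gave 157 in double-positive cells, 291 in PDGFRα-only cells and 365 in double-negative cells, 2.33-fold lower in double-positive than in double-negative cells. All 4 of its probe sets compared were lower in double-positive than in PDGFRα-only cells. Of these 2 were measured on both arrays, with log2 ratios of −1.28 and −0.90. The other 2 were under the floor in double-positive cells, with bounds of −1.60 and −2.37. Epha4 also passed 2-fold in that comparison with quantile normalization and with the mean over all probe sets of a gene. Epha3, a further receptor of A-type ephrins, stayed within 2-fold, while Epha5, Epha7 and Ephb6 were each above the floor in 1 fraction and gave only bounds under 2-fold. Epha1, Epha6, Epha8, Epha10 and Ephb1 were under the floor in all fractions. Between PDGFRα-only and double-negative cells the class gave 1 higher (6.67%) and 1 lower (6.67%) of 15, close to the 4.82% and 5.63% of all genes. Between double-positive and double-negative cells it gave 1 higher (6.67%) and 5 lower (33.3%) of 15, beside 14.5% and 12.2%.

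The single probe sets of a gene show how firmly its ratio stands on this platform. Of the 23 members called between double-positive and PDGFRα-only cells, 15 had several probe sets compared. In 14 of these all probe sets lay on 1 side of 0, the exception being Nrp1. Probe sets under the floor on both arrays do not enter these counts. Outside the 15, Ntn1, Ntn4, Sema7a, Sema4b and Efna5 each had a second probe set that was under the floor in all fractions. In 8 of the 15 the ratios of the probe sets differed by more than 1 on the log2 scale, as for Sema4d (−3.63 to −0.70), Slit2 (−2.91 to −0.47), Sema3e (0.87 to 3.53), Sema5a (−2.09 to −0.07), Efna1 (−3.03 to −0.97) and Plxnb1 (−2.56 to −1.51). In each of these 6 at least 1 probe set was under the floor on 1 array, so that its ratio is a bound. Between PDGFRα-only and double-negative cells 8 called members had several probe sets compared and 3 had probe sets on both sides of 0: Sema4d (−0.09 to 2.01), Nrp2 (−0.04 to 1.53) and Efnb2 (−1.97 to 0.09). Between double-positive and double-negative cells this held for 1 of 17, Nrp1 (−1.78 to 1.27). When the mean over all probe sets of a gene was used, Sema3f, Sema4b, Nrp1 and Efna5 no longer passed 2-fold between double-positive and PDGFRα-only cells, and 19 of the 23 members did.

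**Figure D4:**
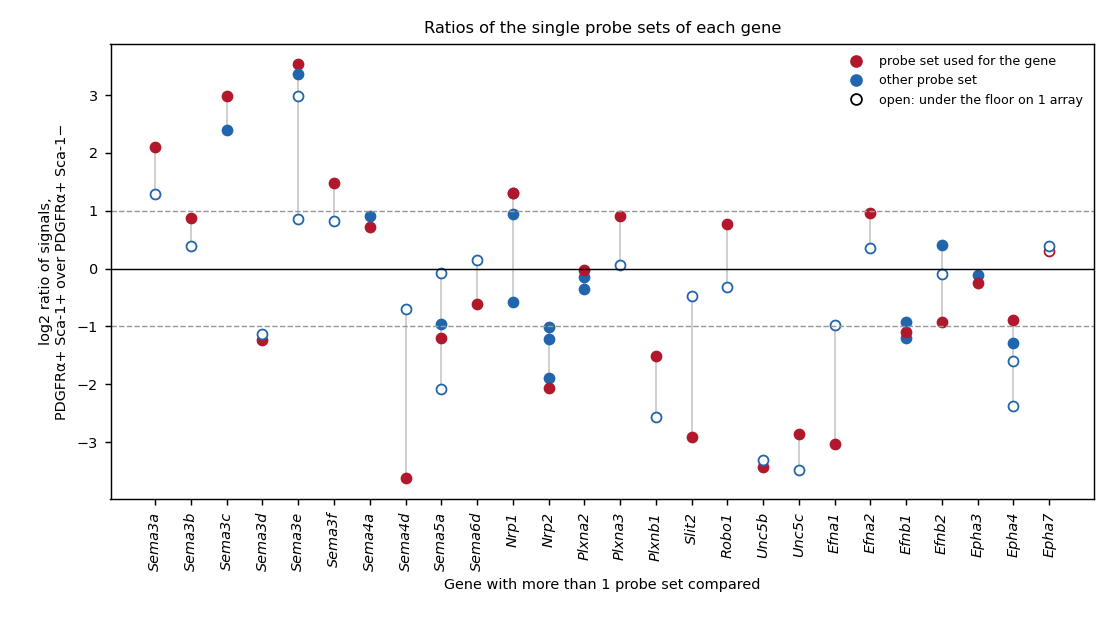
Log2 ratio of signals for double-positive over PDGFRα-only of each probe set of the genes with more than 1 probe set compared; red marks the probe set used for the gene, open symbols lie under the floor on 1 array, and dashed lines mark 2-fold. Nrp1 is the called gene whose probe sets cross 0 (−0.57 to 1.31), and the 4 Nrp2 probe sets all lie below 0.

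Of the motifs searched, the GC box was the most frequent in the start windows of the members. Windows were at hand for 58 of the 67 genes, 74 in all with alternative starts, and 53 of them (71.6%) held at least 1 GC box, where 46.2% of 21262 windows of protein-coding genes and 35.7% of all 32851 windows did. A TATA box was in 2 member windows (2.70%), beside 12.6% of coding windows and 13.6% of all. The RUNX core was in 9 (12.2%), beside 15.0% and 16.8%, and the EBF site in 3 (4.05%), beside 0.959% and 0.904%. None of the 7 windows printed held the RUNX core or the EBF site. A match describes letters in a window and is not a measured binding site.

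Of 26 genes for co-receptors, modifiers and other ligands of these pathways, 19 were compared between double-positive and PDGFRα-only cells, and 4 (21.1%) were higher and 3 (15.8%) lower, beside 14.9% and 11.3% of all genes. Vegfc, a growth factor that uses neuropilin-2, gave 3491 in double-positive cells, 303 in PDGFRα-only cells and 95.4 in double-negative cells. It was 11.5-fold higher in double-positive than in PDGFRα-only cells, 36.6-fold higher than in double-negative cells, and 3.17-fold higher in PDGFRα-only than in double-negative cells. Flrt2, an adhesion protein that binds Unc5 receptors, gave 4727 in double-positive cells, 631 in PDGFRα-only cells and 555 in double-negative cells, 7.49-fold and 8.52-fold higher in double-positive cells. Rgmb, a ligand of neogenin, gave 829 in double-positive cells, 233 in PDGFRα-only cells and 220 in double-negative cells, 3.57-fold higher in double-positive than in PDGFRα-only cells. Chl1, an adhesion molecule that partners neuropilin-1, gave 1838 in double-positive cells, 43.0 (under the floor) in PDGFRα-only cells and 184 in double-negative cells. It was at least 19.7-fold higher in double-positive than in PDGFRα-only cells and 9.99-fold higher in double-positive than in double-negative cells.

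On the lower side, Gpc1, a glypican that binds slits, gave 415 in double-positive cells, 5010.2 in PDGFRα-only cells and 3660 in double-negative cells. It was 12.1-fold lower in double-positive than in PDGFRα-only cells and 8.82-fold lower than in double-negative cells. Flrt3, a relative of Flrt2, gave 69.5 (under the floor) in double-positive cells, 239 in PDGFRα-only cells and 431 in double-negative cells. The double-positive signal of Flrt3 was thus at least 2.56-fold and 4.63-fold lower. Vegfa, the growth factor read through neuropilin-1, gave 1757 in double-positive cells, 9001 in PDGFRα-only cells and 3677 in double-negative cells, 5.12-fold lower in double-positive than in PDGFRα-only cells and 2.45-fold higher in PDGFRα-only than in double-negative cells. Between PDGFRα-only and double-negative cells 3 of 20 genes (15.0%) were higher and 1 (5%) lower, beside 4.82% and 5.63% of all genes. For double-positive over double-negative cells 5 of 21 (23.8%) were higher and 4 (19.0%) lower, beside 14.5% and 12.2%. Adam10, a protease that sheds ephrins and Robo receptors, gave 3528 in double-positive cells, 2096 in PDGFRα-only cells and 933 in double-negative cells, 2.25-fold higher in PDGFRα-only than in double-negative cells. Met, a receptor kinase that pairs with B plexins, gave 522 in double-positive cells, 450.3 in PDGFRα-only cells and 1065 in double-negative cells and was highest in double-negative cells, by 2.36-fold over PDGFRα-only cells.

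Of the 46 intracellular effectors with a value, 41 were compared between double-positive and PDGFRα-only cells, and 8 (19.5%) were higher and 9 (22.0%) lower, beside 14.9% and 11.3% of all genes. Dpysl2 (CRMP2), which carries semaphorin signals to microtubules, gave 15593 in double-positive cells, 3213 in PDGFRα-only cells and 3579 in double-negative cells, 4.85-fold higher in double-positive than in PDGFRα-only cells. Ablim1, an actin-binding protein of the netrin pathway in Caenorhabditis elegans, gave 5728 in double-positive cells, 345 in PDGFRα-only cells and 392 in double-negative cells, 16.6-fold higher in double-positive than in PDGFRα-only cells. Tiam1, a Rac activator downstream of ephrins, gave 1116 in double-positive cells, 302 in PDGFRα-only cells and 1495 in double-negative cells, lowest in PDGFRα-only cells, and was 3.69-fold higher in double-positive than in PDGFRα-only cells. Fyn, a Src-family kinase, and Mical1, an actin-oxidising enzyme bound to plexins, were 2.93-fold and 2.69-fold higher in double-positive than in PDGFRα-only cells.

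Pak3, a Rac-regulated kinase, gave 203 in double-positive cells, 2320.4 in PDGFRα-only cells and 1420.2 in double-negative cells, 11.4-fold lower in double-positive than in PDGFRα-only cells. The actin regulators Enah and Vasp, which act downstream of netrin and Robo receptors, were 5.59-fold and 3.64-fold lower in double-positive than in PDGFRα-only cells. Enah gave 3181 in double-positive cells, 17795 in PDGFRα-only cells and 9614 in double-negative cells. Vav2, which acts downstream of Eph receptors, and Farp2, a Rac activator downstream of plexin-A1, were 3.30-fold and 2.36-fold lower in double-positive than in PDGFRα-only cells. Between PDGFRα-only and double-negative cells 4 of 40 effectors (10%) were higher and 2 (5%) lower, beside 4.82% and 5.63% of all genes, with Dpysl3 (CRMP4), a relative of Dpysl2, 2.93-fold, Vasp 2.53-fold and Farp2 2.09-fold higher, and Tiam1 4.95-fold and the EphA-linked Ngef 2.17-fold lower. Chn1, the remaining higher effector, gave 467 in PDGFRα-only cells and was under the floor in the other fractions. Its signal in PDGFRα-only cells was thus at least 5.01-fold higher than in either. Between double-positive and double-negative cells 11 of 40 (27.5%) were higher and 5 (12.5%) lower, beside 14.5% and 12.2%. The largest there were Ablim1 (14.6-fold), Dpysl3 (7.75-fold) and Dpysl2 (4.36-fold) on the higher side, and Pak3 (6.98-fold), Ngef (3.25-fold) and Enah (3.02-fold) on the lower. The median log2 ratio of the effectors compared was 0.22, 0.39 and 0.31 for double-positive over PDGFRα-only, PDGFRα-only over double-negative and double-positive over double-negative, and that of the co-receptor list 0.60, −0.01 and 0.21.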

How the data were processed

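RNA from 3 sorted mouse cell fractions was labelled with biotin and hybridised to 1 Affymetrix expression array each. The authors deposited 1 intensity per probe set, not log-transformed, made with MAS5 per the submitters' processing notes. Its version was not given in the sources used here. The 2% trimmed mean over 45101 probe sets came to 500.0 on every array as deposited, which shows a common scaling, and the medians were 88.3 in double-positive, 96.6 in PDGFRα-only and 95.2 in double-negative cells.

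Here, 64 controls were removed, the arrays were rescaled to equal 2% trimmed means of the remaining 45037 probe sets, and log2 was taken with the floor of 93.2 as the lowest signal. Symbols came from the platform annotation, in which 34945 probe sets had 1 symbol, 932 several and 9160 none; the 148 member probe sets all matched RefSeq (GRCm38.p6) and 0 symbols changed. The probe set with the largest mean log2 signal stood for its gene. Ratios against a signal under the floor are bounds. The 4 Ephx genes fit the letters of the symbol rule, but encode epoxide hydrolases and were not counted.

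Every member at least 2-fold apart in a comparison was named with its signals; members within 2-fold in all were given in full only where a signal reached 1000. In the pathway lists, genes with the largest ratios measured on both arrays were named. These were up to 5 genes per direction for double-positive over PDGFRα-only, and up to 3 for the other comparisons. Neo1, Dcc, Flrt3 and Chn1 are named beside that rule. The members and lists were chosen with earlier results of these data known. With 1 array per fraction the number of arrays limits the precision and no test was run. The alternatives were other floors, scalings, fold thresholds and probe set rules. The counting was tested on simulated data with less scatter than that between probe sets, so that test does not show how firm a call is. Computations used Python 3.11.15, pandas 2.3.3, NumPy 2.4.6 and matplotlib 3.10.9.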

Additional observations from a re-analysis of the deposited data

How the results depend on the processing

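No scaling of the arrays moved the median of all genes by over 0.1 (log2). No alternative reversed the sign of a log2 ratio called at 2-fold, while sign changes of uncalled ratios were not counted. Another floor cannot reverse such a sign, and scalings that move the medians this little are unlikely to. The check of signs therefore bears mainly on the probe set rules. Of 633 alternative log2 ratios of named members, 569 moved by less than the probe set scatter over all genes and 64 moved further. The SD of that scatter was 0.60 for double-positive over PDGFRα-only, 0.37 for PDGFRα-only over double-negative and 0.50 for double-positive over double-negative. Of the 64, 39 came with the mean over all probe sets of a gene, out of 93 ratios there. A further 19 came with the floor at the 67th percentile, out of 88. The counts of members moved with the fold threshold, as did those of all genes. Among all genes, the 1763 higher and 1340 lower for double-positive over PDGFRα-only became 841 and 693 at 3-fold and 3149 and 2379 at 1.5-fold. The 563 and 657 for PDGFRα-only over double-negative became 202 and 190, and 1471 and 1774. The 1713 and 1443 for double-positive over double-negative became 846 and 714 at 3-fold. For double-positive over PDGFRα-only, the 23 members apart became 15 at 3-fold, the 9 higher became 15 at 1.5-fold, and the 14 lower became 9 at 3-fold. For PDGFRα-only over double-negative, the 13 apart became 8 at 3-fold and 27 at 1.5-fold, the 10 higher became 6 and 17, and the 3 lower became 10 at 1.5-fold and 5 with the floor at the 33rd percentile. With the mean over probe sets, 7 were apart and 5 higher in that comparison, and the count of all genes that were higher was 369 in place of 563, and that of lower genes 408 in place of 657. For double-positive over double-negative, the 25 apart became 16 at 3-fold, and the 13 higher became 7 at 3-fold and 8 with the mean over probe sets. With the floor at the 33rd percentile, Slit1 and Epha7 also passed 2-fold for double-positive over PDGFRα-only, Unc5a, Epha5 and Ephb6 for PDGFRα-only over double-negative, and these 3 and Sema6b for double-positive over double-negative. The floor at the 67th percentile ended the calls of Sema3b and Slit3 for PDGFRα-only over double-negative and of Sema6c and Epha4 for double-positive over double-negative. Calls at 2-fold held under every other floor, scaling and probe set rule for 19 of 23, 6 of 13 and 17 of 25 members in the 3 comparisons, counting as held those that an alternative left without a value. With the mean over probe sets, Sema3b, Sema4b, Sema4d, Sema6d, Efna5 and Efnb2 no longer passed 2-fold for PDGFRα-only over double-negative, nor did Sema4d, Sema6c, Sema6d, Nrp1, Ntn4, Efna2 and Efnb2 for double-positive over double-negative. Some probe sets have names that mark several transcripts or possible matches to other sequences, the latter as for that used for Sema3f. Without them, Sema3b, Sema3f, Sema6c and Epha2 had no value in any comparison, nor Sema4f for double-positive over PDGFRα-only. No paired analysis was possible because each fraction had 1 array. Signals near the floor, such as that of Sema3a in double-negative cells, limit the ratios that rest on them.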

Other observations

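Some members lie next to each other in the genome (RefSeq, GRCm38.p6), with no protein-coding gene between them: Sema3d and Sema3a, Efna1 and Efna3, Efna3 and Efna4, Robo1 and Robo2, and Robo3 and Robo4, 5 pairs in all. The neighbours Sema3a and Sema3d differed in opposite directions between double-positive and PDGFRα-only cells, with log2 ratios of 2.10 and −1.23. Efna1 was 8.16-fold lower in double-positive than in PDGFRα-only cells, while its neighbour Efna3 gave 95.2 in double-positive cells and 142 in PDGFRα-only cells, and Efna4 64.3, under the floor, and 96.8 in the same order. Robo1 was above the floor in every fraction and its neighbour Robo2 in none.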
